A study of Homo sapiens with 8 samples.

Results

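The mRNAs of the translation initiation and elongation factors were compared between DLD1 colorectal cancer cells that overexpress the tRNA m1A methyltransferase TRMT6/61A and vector cells. The members are the 69 protein-coding genes whose symbols start with EIF1 to EIF6, EEF1 or EEF2, out of 58302 genes in the count table. They were chosen by name and not by their measured values, although earlier results of these data were known. They include the EIF2AK kinases, the EIF4EBP repressors and the methyltransferases of the elongation factors. A further 162 genes with these prefixes are not protein coding, 155 of them pseudogenes, and were left out.

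DLD1 is an established line of colorectal adenocarcinoma cells. The OE-WT group was transduced with lentivirus to overexpress TRMT6/TRMT61A, and the CTRL group with an empty vector. Each group has 2 libraries, described as duplicate cultures of the same transduced cells, so p-values measure the spread between these cultures and not between independently made lines. All cells were washed and lysed with cycloheximide, a blocker of translation elongation, before RNA was extracted. The labels name poly(A) selection and stranded libraries, whereas the methods of the study describe removal of ribosomal RNA, and which of these was applied could not be settled. The design text can also be read as separate groups for TRMT6 and TRMT61A, whereas the sample labels name both genes together.

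Protein synthesis starts when eIF2 brings the initiator tRNA to the small ribosomal subunit with the help of eIF1, eIF1A, eIF3 and eIF5. The cap-binding complex eIF4F, made of eIF4E, eIF4G and eIF4A, then loads the mRNA, and eIF5B joins the large subunit. The guanine exchange factor eIF2B recharges eIF2 with GTP, and the eIF2 kinases PKR, PERK, GCN2 and HRI block this step under stress. In elongation, eEF1A delivers aminoacylated tRNA, eEF1B recharges eEF1A, eEF2 moves the ribosome along and eIF5A helps at stalled sites. Many mRNAs of the translation machinery begin with a C and a run of pyrimidines, the terminal oligopyrimidine tract, which makes their translation depend on mTOR.

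The start windows of 9 members are shown because the log2 fold changes differed in median between members with and without this tract, as given further on. Each window runs 5′ to 3′ from 10 bases before to 20 bases after the RefSeq start (GRCh38.p14), so it holds the end of the promoter and the first bases of the first exon, and capitals mark a C followed by at least 4 pyrimidines at the start itself. The letters searched were C, then C or T, on the strand of the gene only.
EEF1A1, chr6:73521013-73521042, minus strand: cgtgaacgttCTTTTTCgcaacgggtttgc
EEF2, chr19:3985444-3985473, minus strand: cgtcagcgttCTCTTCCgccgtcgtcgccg
EEF1B2, chr2:206159885-206159914, plus strand: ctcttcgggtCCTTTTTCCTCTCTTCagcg
EIF4A2, chr3:186783567-186783596, plus strand: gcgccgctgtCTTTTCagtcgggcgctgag
EIF3M, chr11:32583821-32583850, plus strand: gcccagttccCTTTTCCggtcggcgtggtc
EIF2S3, chrX:24054946-24054975, plus strand: gatttccttcCTCTTTTggcaacatggcgg
EIF2S1, chr14:67360318-67360347, plus strand: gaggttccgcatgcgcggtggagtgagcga
EIF2B1, chr12:123633667-123633696, minus strand: gtacggaagtgcgccggaagtggggtgcgg
EIF4EBP2, chr10:70404135-70404164, plus strand: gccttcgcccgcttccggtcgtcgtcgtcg
The first 6 carry the tract and the last 3 do not. The 9 were selected and do not stand for all members. The last 3 were all called higher, whereas of the 37 tested members without the tract 14 were higher and 1 lower. RefSeq starts were found for 55 of the 69 members, and 13 of these have the tract. By gene, counting the tract at any start, 5.14% of the 27305 genes in the table have it, and by promoter 4.07% of 35116.

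The libraries held 10460284 and 10327498 counts in OE-WT, with 12379671 and 12063433 in CTRL. TRMT6, the non-catalytic subunit, had 2092 and 1841 counts with overexpression against 677 and 683 without, a log2 fold change of 1.86, and TRMT61A, the catalytic subunit, rose by 1.21 on the log2 scale. The epithelial genes EPCAM, KRT8, KRT18 and CDH1 and the intestinal gene CDX2 had over 1000 counts in every library, while VIL1 had 36 to 45. Of these markers KRT8 and KRT18 were called higher in OE-WT (log2 fold change 0.25 and 0.30), and CDH1 (-0.29, adjusted p = 0.0032) and KRT20, of differentiated cells (-1.52), were lower. The leukocyte gene PTPRC and the endothelial gene PECAM1 had at most 3 counts, and of the fibroblast genes COL3A1 was at 0 and COL1A1 had 18 to 22 counts. In these bulk libraries, fewer cells that make an mRNA and less of it per cell cannot be told apart. Mitochondrially encoded genes took 33.5% and 29.9% of the counts in OE-WT, with 25.1% and 27.7% in CTRL.

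Of the 69 members, 64 had enough reads to be tested, each with at least 10 counts in every library. At an adjusted p below 0.05, 20 members were higher in OE-WT and 4 were lower. The same calls were made on 9.44% of all 14133 genes tested as higher and on 11.6% as lower, and on 13.5% and 15.7% of the 7658 protein-coding genes with a mean of at least 100 counts. The log2 fold change was above 0 in 48 members and below 0 in 16, with a median of 0.16. Over all genes tested the median was 0.01, and 48.9% were below 0. In 38 members both OE-WT libraries lay above both CTRL libraries and in 13 below them, where all genes gave 29.9% and 30.2%. The changes were small. The study asked for a fold change of more than 1 on the log2 scale in either direction and an unadjusted p under 0.05, and EEF1A2 alone passed this, where 2.25% of all genes passed as lower and 0.899% as higher. With scaling by library size alone, the median of all genes moved to -0.08 and that of the members to 0.07, and 9 members were then higher and 4 lower. As a summed share of all counts the members held 1.57% and 1.61% in OE-WT and 1.68% and 1.63% in CTRL (exact two-sided permutation test, p = 0.333, the smallest it can give), and most of these reads lie on EEF1A1 and EEF2, which were not called. The part of the mitochondrial share in these shares was not tested, but the ratio of the summed shares was -0.06 on the log2 scale over all counts and 0.06 over protein-coding counts outside the mitochondrial chromosome.

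**Figure D1:**
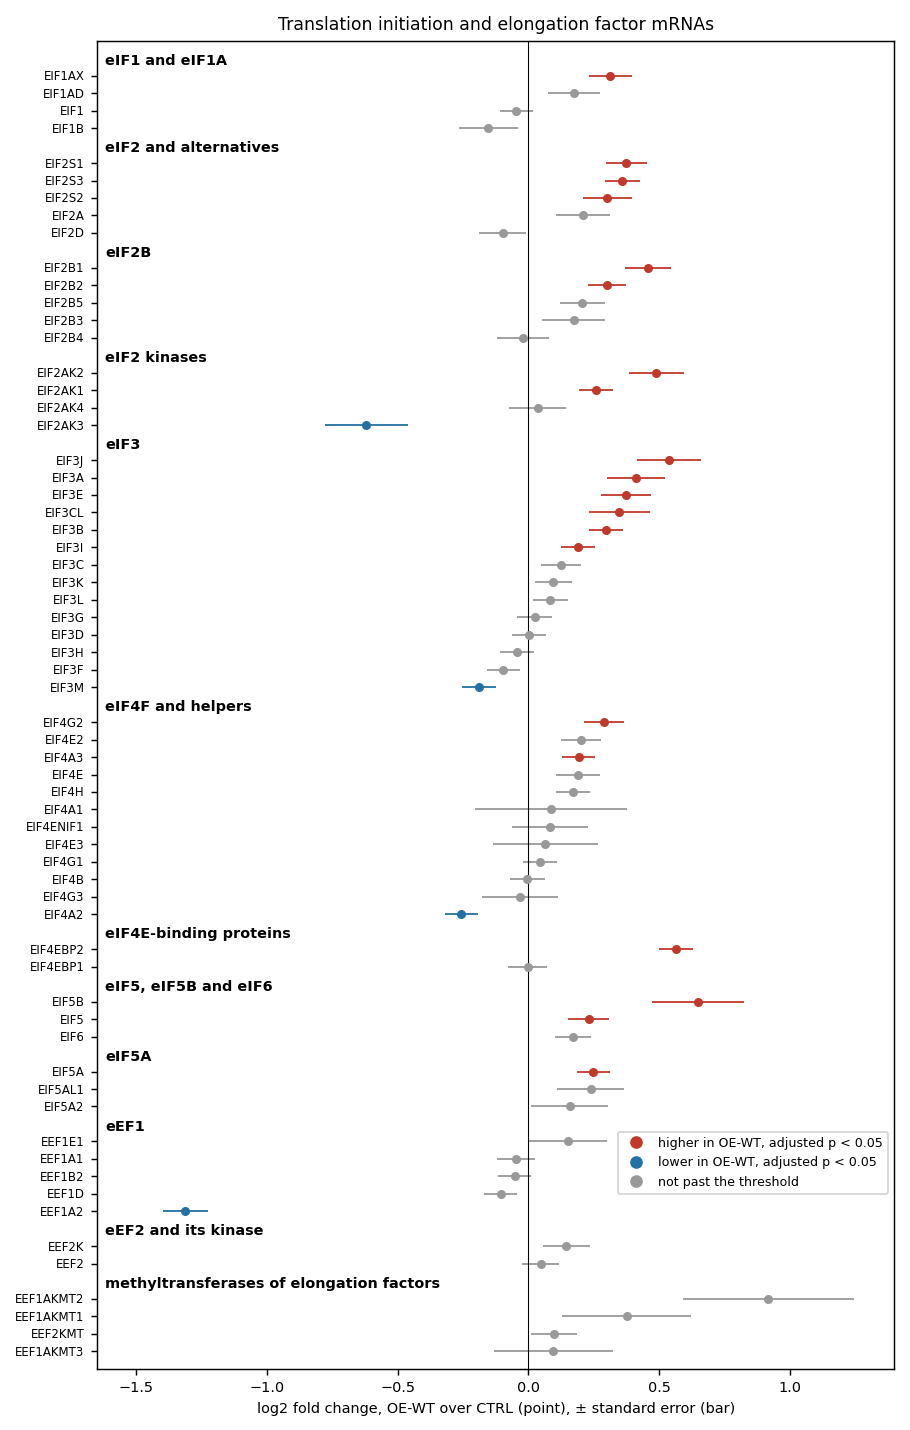
Log2 fold change of OE-WT over CTRL for 63 tested members, grouped by role, with bars of 1 standard error and colour for the call at an adjusted p below 0.05; the Y-linked EIF1AY is not drawn. Most points lie right of 0, EEF1A2 lies far to the left at -1.31, and EEF1AKMT2 at 0.92 has the widest bar.

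The mRNAs of the 3 subunits of eIF2 were all higher in OE-WT. EIF2S1 encodes the alpha subunit that the stress kinases phosphorylate. It stood at 80.9 and 72.0 CPM (counts per 1000000 counts of the TMM-scaled library size) in OE-WT and at 56.8 and 61.1 in CTRL, a log2 fold change of 0.37 ± 0.078 (SE, n = 2 per group, adjusted p = 0.0016 in edgeR's quasi-likelihood test). EIF2S3, the gamma subunit that binds GTP and the initiator tRNA, stood at 121.0 and 119.4 CPM in OE-WT and 91.6 and 95.8 in CTRL (log2 fold change 0.36 ± 0.067 SE, adjusted p = 5.8e-04). For both, the groups were well separated and the call held with each library left out. EIF2S2, the beta subunit, stood at 70.8 and 56.9 CPM in OE-WT and 48.5 and 55.1 in CTRL, where the lower OE-WT library was close to the higher CTRL one. Its log2 fold change of 0.30 (adjusted p = 0.025) lost the call without OE-WT replicate 1 (0.14, adjusted p = 0.41) and without CTRL replicate 1 (0.21, adjusted p = 0.17). EIF2A and EIF2D, which can bring initiator tRNA without eIF2, did not pass, at 0.21 and -0.10.

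Of the 5 genes of eIF2B, 2 rose. EIF2B1, the alpha subunit, stood at 43.2 and 43.4 CPM in OE-WT and at 32.0 and 31.1 in CTRL, so that the spread within groups was far below the gap between them (log2 fold change 0.46 ± 0.087 SE, adjusted p = 6.7e-04). EIF2B2, the beta subunit, stood at 74.8 and 70.6 CPM against 57.9 and 60.1, a log2 fold change of 0.30 (adjusted p = 0.0058). EIF2B5, the catalytic epsilon subunit, had a log2 fold change of 0.21 that did not pass (adjusted p = 0.098), with 47.2 and 48.5 CPM against 44.2 and 38.6. EIF2B3 was at 0.17 and EIF2B4 at -0.02, neither past the threshold. The alpha and beta subunits belong, with the delta subunit EIF2B4, to the regulatory part of the complex that senses phosphorylated eIF2.

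Of the 4 eIF2 kinases, 2 rose, 1 fell and 1 did not pass. EIF2AK2, which encodes the double-stranded RNA sensor PKR, stood at 28.4 and 31.2 CPM in OE-WT and 20.2 and 22.2 in CTRL (log2 fold change 0.49 ± 0.11 SE, adjusted p = 0.0020). EIF2AK1, the haem-regulated kinase HRI and the most abundant of the 4 per length, stood at 151.2 and 159.1 CPM against 131.0 and 128.3, a log2 fold change of 0.26 (adjusted p = 0.0070) that missed the threshold without OE-WT replicate 2 (0.21, adjusted p = 0.058). EIF2AK3, which encodes PERK of the endoplasmic reticulum, was lower, with 9.97 and 8.65 CPM in OE-WT against 12.8 and 15.8 in CTRL. Its log2 fold change was -0.62 ± 0.16 (SE, adjusted p = 0.0074), and the groups did not overlap, but the call was lost in DESeq2 (adjusted p = 0.056) and without CTRL replicate 2 (-0.46, adjusted p = 0.086). EIF2AK4, the sensor of uncharged tRNA GCN2, was at 31.4 and 26.2 CPM against 26.4 and 29.9, with overlapping groups and a log2 fold change of 0.03 (adjusted p = 0.85). PERK made up 4.51% and 3.84% of the counts on the 4 kinases in OE-WT and 6.74% and 8.07% in CTRL, 0.564 times the CTRL share. A lncRNA on the strand opposite EIF2AK3, ENSG00000225420, covers 3.77% of the exon bases of EIF2AK3 and had 12 and 16 counts in OE-WT against 47 and 40 in CTRL. Its part in the lower EIF2AK3 counts was not tested.

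**Figure D2:**
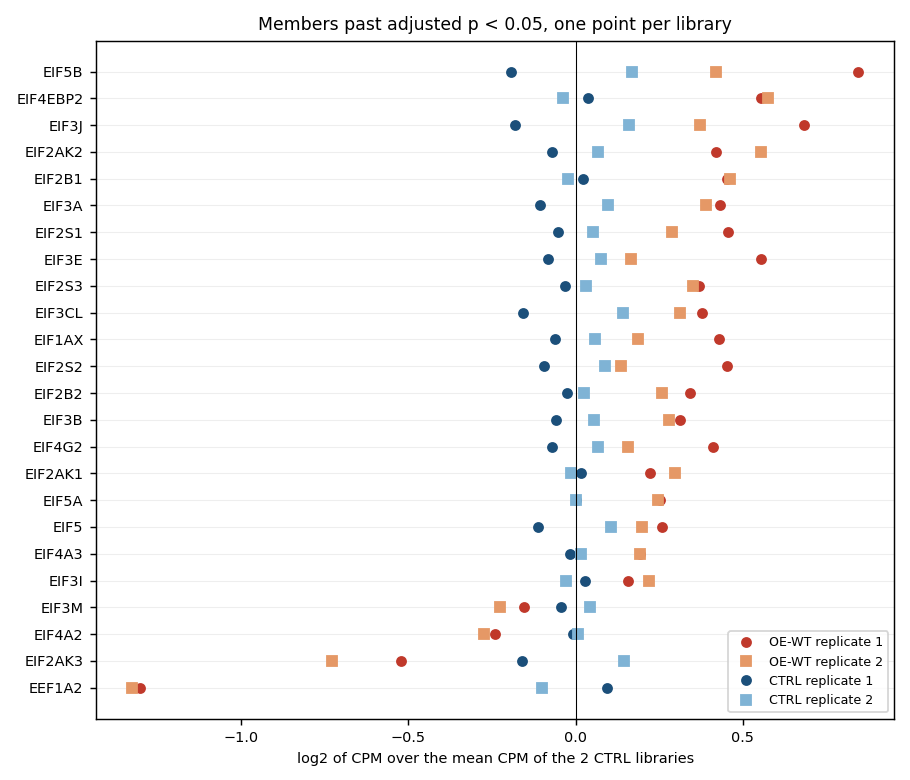
Each of the 24 members past an adjusted p of 0.05, with 1 point per library at the log2 of its CPM over the mean CPM of the 2 CTRL libraries. EIF4EBP2, EIF2B1, EIF5A and EIF4A2 show tight pairs, while EIF5B, EIF3J, EIF3E and EIF4G2 have OE-WT replicate 1 well above OE-WT replicate 2.

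Of the 14 genes of eIF3, the scaffold on the small subunit, 6 rose and 1 fell. EIF3J, a loosely bound subunit that acts in the mRNA channel, had the highest log2 fold change, 0.54 ± 0.12 (SE, adjusted p = 0.0032), with 34.8 and 28.0 CPM in OE-WT against 19.1 and 24.2 in CTRL. EIF3A, the largest core subunit, stood at 26.3 and 25.6 CPM against 18.1 and 20.9, a log2 fold change of 0.41 (adjusted p = 0.011) that was lost without CTRL replicate 1 (adjusted p = 0.13). EIF3B, the other large core subunit, was at 197.0 and 192.5 CPM against 152.4 and 164.9 (log2 fold change 0.30, adjusted p = 0.0027) and was at an adjusted p of 0.051 without CTRL replicate 1. For both, the lower OE-WT library lay above the higher CTRL library.

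EIF3E had 90.8 and 69.4 CPM in OE-WT and 58.5 and 65.2 in CTRL. The first OE-WT library was far above the second, and without it the log2 fold change of 0.37 (adjusted p = 0.0080) became 0.17 (adjusted p = 0.25). EIF3CL, a near-identical copy of EIF3C, was called at 0.35 (adjusted p = 0.039), while EIF3C itself was at 0.13 (adjusted p = 0.26). Reads of the 2 copies cannot be told apart with certainty, so the share of EIF3CL in their joint counts, 30.3% and 29.4% against 24.7% and 28.7%, is uncertain, and its call was lost without either replicate 1. EIF3I, a subunit built of WD repeats, rose by 0.19 on the log2 scale (adjusted p = 0.040), with 287.2 and 300.3 CPM against 262.8 and 252.6, and lost the call without OE-WT replicate 2 or either CTRL library (adjusted p of 0.077 to 0.22). EIF3M, a subunit of the outer ring, was the lowest of the 14 at -0.19 (adjusted p = 0.045), with 186.7 and 177.5 CPM against 201.3 and 213.9, and this call was lost with any 1 of the 4 libraries left out (adjusted p of 0.053 to 0.26). The subunits EIF3D, EIF3F, EIF3G, EIF3H, EIF3K and EIF3L lay between -0.10 and 0.10 and did not pass. EIF3E counts amounted to 48.6% and 39.1% of EIF3M counts in OE-WT and to 29.0% and 30.5% in CTRL. This ratio restates the rise of EIF3E and the fall of EIF3M and carries the limits given for both.

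Among the 12 tested genes of eIF4F and its helpers, 2 rose and 1 fell. The cap-binding protein EIF4E stood at 44.4 CPM in both OE-WT libraries and at 38.2 and 39.6 in CTRL, with a log2 fold change of 0.19 that did not pass (adjusted p = 0.11). The scaffold EIF4G1 was at 507.6 and 472.0 CPM against 466.3 and 484.2, with overlapping groups and a log2 fold change of 0.04 (adjusted p = 0.69). EIF4G2, a relative of eIF4G that lacks the eIF4E-binding site, rose by 0.29 on the log2 scale (adjusted p = 0.0099), from 386.1 and 425.0 CPM in CTRL to 539.1 and 452.2 in OE-WT. The call on EIF4G2 was lost without OE-WT replicate 1 (0.16, adjusted p = 0.21) and without CTRL replicate 1 (0.22, adjusted p = 0.065).

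Of the RNA helicases of the eIF4A family, 1 fell and 1 rose. EIF4A2 was lower, with 216.6 and 212.0 CPM in OE-WT against 254.6 and 257.5 in CTRL, a log2 fold change of -0.26 ± 0.063 (SE, adjusted p = 0.0057) that kept its call with each library left out. EIF4A3, which acts in the exon junction complex and not in eIF4F, was higher at 208.4 and 208.3 CPM against 180.3 and 184.3 (log2 fold change 0.19, adjusted p = 0.034), but was not called in any fit that left out a library (adjusted p of 0.074 to 0.19). EIF4A1 had only 38 and 23 counts in OE-WT, with 42 and 30 in CTRL. On the same strand it shares 42.1% of its exon bases with the lncRNA ENSG00000264772 and 28.2% with the readthrough gene SENP3-EIF4A1. These genes held at most 2 counts in any library, but reads in shared bases could be set aside. The 13 pseudogenes of EIF4A1 held 35 and 20 counts in OE-WT, with 39 and 29 in CTRL, 92.5% of the counts on EIF4A1. Reads could thus also be split between copies, and the level of EIF4A1 is uncertain. The helpers EIF4B and EIF4H were at 0.00 and 0.17, neither past the threshold.

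Of the 2 tested repressors of eIF4E, 1 rose. EIF4EBP2 stood at 172.9 and 175.5 CPM in OE-WT and at 120.8 and 114.6 in CTRL. Its log2 fold change of 0.57 ± 0.066 (SE, adjusted p = 2.8e-06) had the smallest adjusted p of the members that rose, and it kept its call in each of the 8 alternative fits and with each of the 4 libraries left out. EIF4EBP1, the paralogue best known as an mTOR substrate, was at 72.5 and 78.2 CPM in OE-WT and 78.0 and 73.1 in CTRL, with overlapping groups and a log2 fold change of 0.00 ± 0.074 (SE, adjusted p = 0.98). EIF4EBP2 counts were 238.3% and 224.4% of EIF4EBP1 counts in OE-WT against 154.9% and 156.7% in CTRL, 1.48 times the CTRL ratio. The counts of both repressors together were 552.4% and 571.2% of EIF4E counts in OE-WT, with 519.7% and 474.0% in CTRL. EIF4EBP3 had 0 counts in every library.

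Late initiation factors were also higher in part. EIF5B, which joins the subunits, had the largest log2 fold change of the members called higher, 0.65 ± 0.18 (SE, adjusted p = 0.011), at a low level of 14.5 and 10.8 CPM in OE-WT against 7.07 and 9.09 in CTRL. The call was lost without OE-WT replicate 1 (0.43, adjusted p = 0.15) and without CTRL replicate 1 (0.47, adjusted p = 0.11). EIF5, the GTPase activator of eIF2, was at 78.7 and 75.5 CPM against 60.8 and 70.7 (log2 fold change 0.23, adjusted p = 0.043), and it was lost without OE-WT replicate 1 (adjusted p = 0.14) and without CTRL replicate 1 (adjusted p = 0.46). EIF6, which keeps the large subunit from joining early, stood at 81.9 and 82.4 CPM against 73.0 in both CTRL libraries, a log2 fold change of 0.17 that did not pass (adjusted p = 0.090).

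EIF5A, the hypusine-bearing factor that relieves stalled ribosomes, rose at a high level, from 806.5 and 806.2 CPM in CTRL to 959.5 and 956.7 in OE-WT. The libraries of each group nearly coincided, and the log2 fold change was 0.25 ± 0.064 (SE, adjusted p = 0.0079). It kept its call with each library left out and lost it with scaling by library size alone (0.16, adjusted p = 0.21). On the opposite strand, GPS2 covers 8.98% of the exon bases of EIF5A. GPS2 had 2739 and 2761 counts in OE-WT against 3050 and 2801 in CTRL, a log2 fold change of 0.24. Its part in the EIF5A counts was not tested. The EIF5A paralogue EIF5A2 stood at 13.6 and 12.2 CPM against 12.2 and 10.9 and did not pass (0.16, adjusted p = 0.49). EIF5AL1, a near-identical copy of EIF5A on another chromosome, was at 0.24 (adjusted p = 0.20) and may hold reads of EIF5A. Of the genes around eIF1, which guards start codon choice, EIF1AX rose by 0.31 on the log2 scale (adjusted p = 0.0092), with 86.9 and 73.4 CPM against 61.9 and 67.2. EIF1AX lost the call without OE-WT replicate 1 (adjusted p = 0.18) and without CTRL replicate 1 (adjusted p = 0.065), while EIF1 itself was at -0.05 (adjusted p = 0.65), with 548.7 and 562.7 CPM against 574.7 and 573.7.

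Apart from EIF5A, given above, the elongation factors showed 1 large change and otherwise none past the threshold. EEF1A2 (chr20:63488013-63499239 on GRCh38, minus strand), the eEF1A form of neurons and muscle that many carcinomas also make, had 340 and 343 counts in OE-WT against 1158 and 970 in CTRL. In CPM it stood at 34.3 and 33.7 against 90.0 and 78.7, which is 0.403 times the CTRL level. The log2 fold change was -1.31 ± 0.085 (SE, adjusted p = 8.3e-10), and it stayed between -1.40 and -1.12 in the 8 alternative fits and between -1.40 and -1.21 with each library left out, past the threshold in all of them. The common form EEF1A1 was at 6312 and 6342 CPM in OE-WT and at 6629 and 6454 in CTRL, a log2 fold change of -0.05 ± 0.074 (SE, adjusted p = 0.69). EEF1A2 made up 0.540% and 0.529% of the joint EEF1A1 and EEF1A2 counts in OE-WT, with 1.34% and 1.21% in CTRL.

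EEF2, the translocase, stood at 2654 and 2714 CPM in OE-WT and 2648 and 2549 in CTRL. Its log2 fold change of 0.05 (adjusted p = 0.68) turned to -0.04 with scaling by library size alone. EEF2K, the kinase that inactivates eEF2, was at 36.6 and 37.8 CPM against 32.3 and 35.1 and did not pass (0.15, adjusted p = 0.27). The exchange factor subunits EEF1B2 and EEF1D were at -0.05 and -0.11, and EEF1E1, a scaffold partner of tRNA synthetases, at 0.15, none past the threshold. Of the 4 methyltransferases of elongation factors, 0 passed an adjusted p of 0.05 in the quasi-likelihood test. EEF1AKMT2 had a log2 fold change of 0.92 ± 0.33 (SE, adjusted p = 0.051) on only 30 and 23 counts in OE-WT, with 15 and 20 in CTRL. It passed in 4 of the 7 alternative fits that gave it an adjusted p (0.035 to 0.085), and DESeq2 gave it none. With a library left out its log2 fold change was 0.70 to 1.17, and it was not called in any of these fits.

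Of the 5 members that were not tested, 4 had 0 counts in all 4 libraries: EEF1G, EIF4E1B, EIF4EBP3 and the readthrough gene EEF1E1-BLOC1S5. A count of 0 allows up to 3 counts, between 0.233 and 0.302 CPM by library, which covers counting error only. EEF1G encodes a structural subunit of eEF1B, and 99.7% of its exon bases lie on the same strand within another listed coding gene, ENSG00000255508, which had 8 and 10 counts in OE-WT, with 27 and 16 in CTRL. EIF4EBP3 shares 73.2% with the readthrough gene ANKHD1-EIF4EBP3 in the same way. For these genes, 0 counts is therefore not a measure of absence. EIF2S3B, a copy of EIF2S3, had 3 and 2 counts in OE-WT, with 1 in each CTRL library. The level of EIF1AY, which is Y-linked, is not given, although it is counted among the members tested. In all, 31 members share exon bases with a listed gene on the opposite strand, 14 of the 24 called among them, and 14 members do so on the same strand. The 49 pseudogenes of EEF1A1 held 4395 and 4663 counts in OE-WT, with 6062 and 5744 in CTRL, 7.15% of the counts on EEF1A1, so reads can be split between copies.

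Levels were compared between genes as CPM per kilobase, a scale that depends on the transcript length taken. With the length of the canonical transcript in CTRL, EEF1A1 was the most abundant member at 1862 ± 35.3 (SD, n = 2), followed by EEF2 at 823 ± 22.1, EIF5A at 638 ± 0.136, EEF1B2 at 412 ± 2.46 and EIF1 at 246 ± 0.282, and these 5 neighbours differed by more than their spread. EIF3I came next at 181 ± 5.07, EIF3K at 156 ± 11.5 and EEF1D at 149 ± 2.61, and the last 2 did not differ beyond their spread. With the union of all exons of a gene as the length, EEF1A1 at 650.0 and EEF2 at 646.1 lay side by side and EIF5A at 300.3, EEF1B2 at 173.6 and EIF1 at 158.5 kept their places, but EIF3I was at 27.1 and EEF1D at 33.2, below EIF4EBP1 at 85.9 and EIF4G1 at 54.3 among others. In OE-WT the leading genes kept the order of the canonical lengths, with EEF1A1 at 1802, EEF2 at 850, EIF5A at 758, EEF1B2 at 397 and EIF1 at 238. The median over the members tested was 17.7 in CTRL. The 14 genes of eIF3 spread from 2.93 for EIF3A to 181 for EIF3I by canonical length, and from 1.64 for EIF3E to 43.0 for EIF3K by the union of exons, so both ends turn on the length taken.

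**Figure D3:**
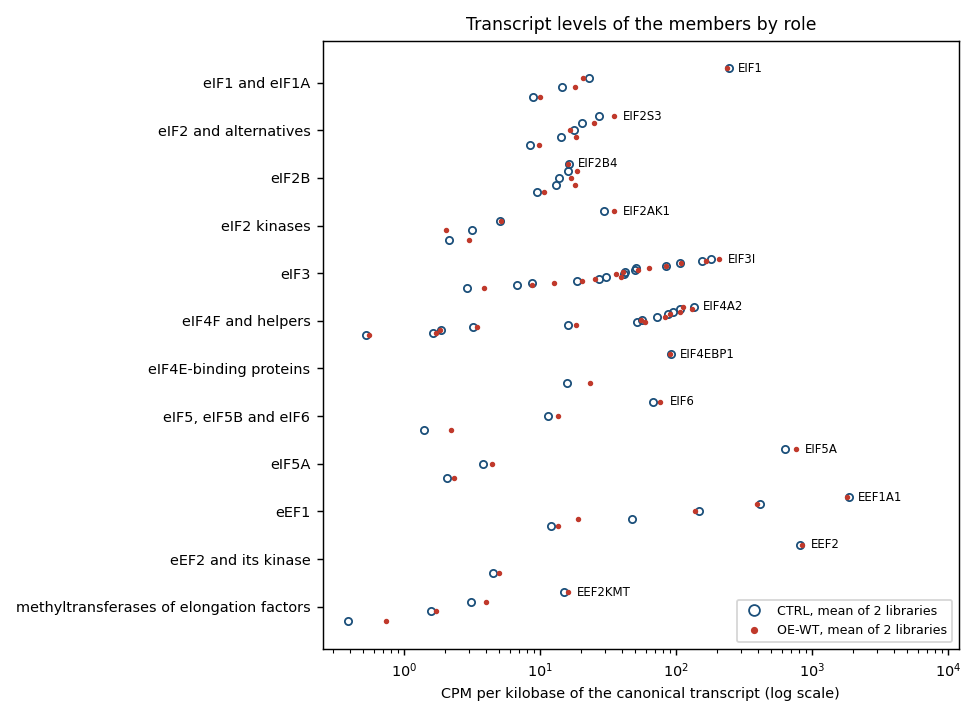
Mean CPM per kilobase of the canonical transcript on a log axis for each tested member by role, with open circles for CTRL and dots for OE-WT (2 libraries each) and the name of the highest member of each role. EEF1A1, EEF2, EIF5A and EEF1B2 hold the highest levels and EEF1AKMT2 and EIF4E3 the lowest. The widest gap between circle and dot is that of EEF1A2, at 47.6 in CTRL and 19.2 in OE-WT.

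Members with and without an oligopyrimidine start had different medians. Of the 12 tested members with the tract, 1 rose, EIF2S3, and 2 fell, EIF4A2 and EIF3M, and the median log2 fold change was -0.03. Of the 37 members with a RefSeq start and no tract, 14 rose and 1 fell, with a median of 0.19. The 14 tested members without a RefSeq start in the table had 5 higher and 1 lower. Among all protein-coding genes tested, the 724 with the tract had 73 higher, 111 lower and a median of -0.02. These 724 include members and ribosomal protein genes, and the 664 that are neither had 72 higher, 100 lower and a median of -0.007. The 8786 protein-coding genes with a RefSeq start and no tract had 937 higher, 1075 lower and a median of 0.02. The cytosolic ribosomal protein genes, nearly all known for such starts, had 1 higher and 17 lower of 84 tested, with a median of -0.08, and the 48 of them with the tract by this search had 0 higher, 9 lower and a median of -0.10. A separate list, not complete, named 9 members as known terminal oligopyrimidine mRNAs. Of these, 8 were tested, of which EIF3E alone was higher and 0 were lower, with a median of -0.05. The other 56 tested members had 19 higher, 4 lower and a median of 0.17. They include EIF2S3, EIF4A2 and EIF3M, which have the tract by the search above but are not on the list. The difference between these medians was not tested.

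**Figure D4:**
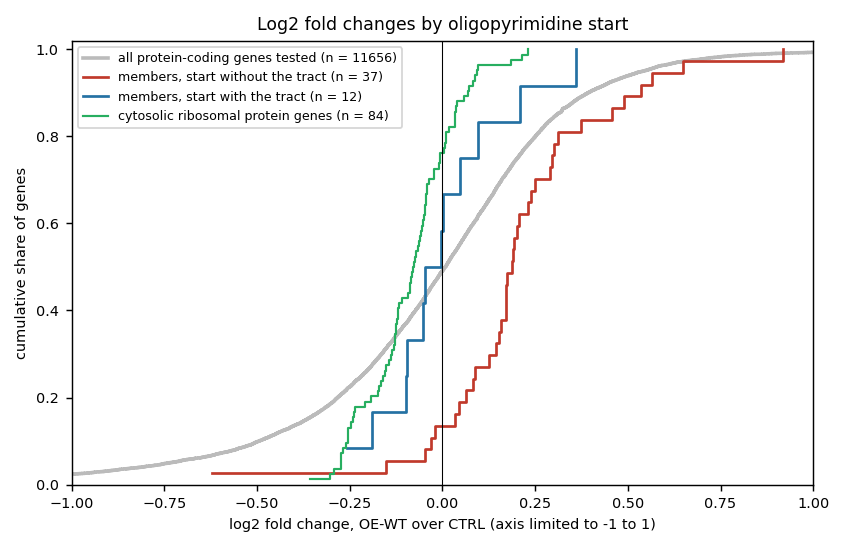
Cumulative share of genes by log2 fold change of OE-WT over CTRL, for all 11656 protein-coding genes tested, the 37 members without and the 12 members with an oligopyrimidine start, and 84 cytosolic ribosomal protein genes; the axis stops at -1 and 1. The curve of members without the tract lies to the right, with its median at 0.19, and the curve of members with the tract crosses the middle near 0, at -0.03.

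Across genes, log2 fold changes were lower at higher transcript GC content, but the 4 members that fell had no higher median than those that rose. The median transcript GC content was 43.9% in the 20 members that rose, 42.2% in the 4 that fell and 48.9% in the 39 others drawn, against 49.0% over all protein-coding genes tested. Over protein-coding genes the median was 45.7% in those that rose and 56.6% in those that fell. Across the 63 members Pearson's r between GC content and log2 fold change was -0.37, and across 11656 protein-coding genes -0.32, where the points share the same 4 libraries. After a GC trend was removed from each library, r across the members was -0.10, 18 members were higher and 5 lower, and values of single members moved by -0.12 to 0.19. EEF1A2, at 64.6% GC, was at -1.12 in that fit. The glutamate codon GAG made up a median of 3.81% of the members' codons against 3.84% over protein-coding genes, and the aspartate codon GAC 3.03% against 2.43%. Their coding sequences had a median of 1218 bases against 1392. The part of GC content in the called changes was otherwise not tested.

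**Figure D5:**
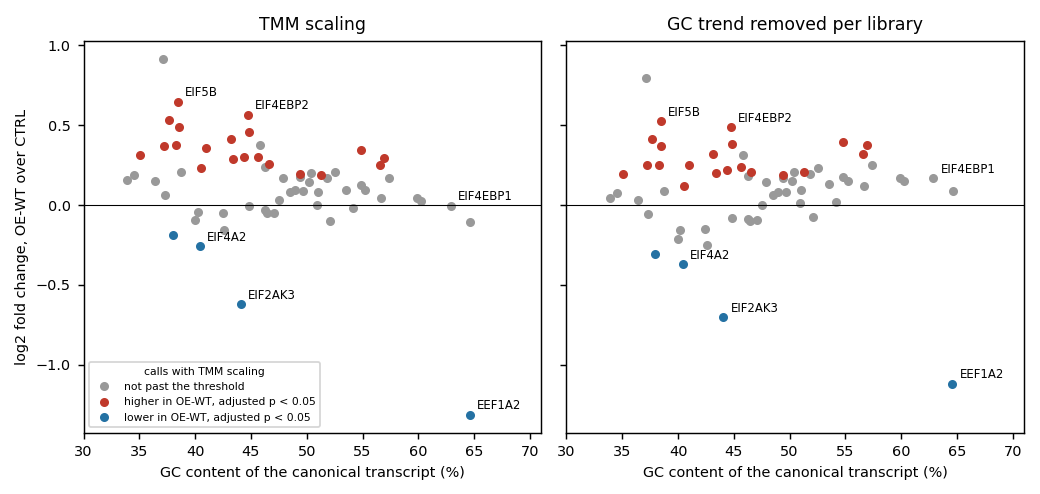
Log2 fold change of OE-WT over CTRL against the GC content (%) of the canonical transcript for 63 members, with TMM scaling on the left and after removal of a GC trend per library on the right, coloured by the call with TMM scaling. The members called higher have a median GC content of 43.9%, but EIF3CL, EIF5A and EIF3B among them lie at 54.8% to 56.9%. EEF1A2 stays the lowest point in both panels, at -1.31 and -1.12.

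Outside the members, 51 other translation genes from a list of 52 names were tested, with a median of 0.06. Of these, 9 (17.6%) were higher and 5 (9.8%) lower, against 9.44% and 11.6% of all genes tested. Among protein-coding genes with a mean of at least 100 counts the shares were 13.5% and 15.7%. The highest were the helicase DDX3X (66.0 CPM in OE-WT against 47.3 in CTRL as means of 2, log2 fold change 0.48, adjusted p = 0.0028), the recycling factor ABCE1 (39.5 against 28.9, 0.45, adjusted p = 0.0015), the reinitiation factor DENR (35.3 against 25.9, 0.45, adjusted p = 0.0041), the termination factor ETF1 (94.0 against 69.0, 0.45, adjusted p = 9.0e-04) and ABCF1, a partner of eIF2 (94.9 against 71.1, 0.42, adjusted p = 5.1e-04). DDX3X lost the call in DESeq2 (adjusted p = 0.18) and without OE-WT replicate 1 (0.25, adjusted p = 0.091) and DENR without CTRL replicate 1 (0.32, adjusted p = 0.058). The lowest were DPH6 of the diphthamide pathway that modifies eEF2 (-0.84, adjusted p = 0.0497), PAIP2B, a repressor of poly(A)-binding protein (-0.57, adjusted p = 0.011), GIGYF1, a partner of the cap-binding repressor EIF4E2 (-0.51, adjusted p = 0.0038), PPP1R15A, the subunit that directs dephosphorylation of eIF2 (-0.38, adjusted p = 2.6e-04), and ATF4, the transcription factor translated when eIF2 is phosphorylated (-0.18, adjusted p = 0.047). PPP1R15A stood at 275.2 and 290.5 CPM in OE-WT against 375.7 and 358.6 in CTRL and held its call with each library left out. The calls on DPH6 (adjusted p of up to 0.32), ATF4 (up to 0.23) and PAIP2B (0.20 without CTRL replicate 1) were lost with a library left out.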

How the data were processed

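RNA of 4 DLD1 libraries was measured. The labels give poly(A) selection and 2 libraries per group on 2 lanes each, while the methods of the study give rRNA removal and 3 replicates per group. The authors trimmed reads, aligned them to GRCh38 with HISAT2 and deposited raw read counts per gene. The study's methods name HTSeq as the counter, and the submitters' processing notes list HISAT2 2.2.1, featureCounts 2.0.0 and DESeq2 1.34.0. The strand setting and annotation of the counting are not given in the sources used here. Lanes are merged into 1 column of counts for each library, matched to its group by name, and 0 further per-sample columns are present.

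Genes were tested with edgeR 4.0.16 in R 4.3.3 (quasi-likelihood test, TMM, the default filter with a minimum count of 10, Benjamini-Hochberg over 14133 genes), and standard errors are the absolute log2 fold change over the square root of F. With 2 libraries per group an exact permutation test of a single value cannot go below 0.333, so summed shares carry no call. Alternatives were DESeq2 1.42.0, edgeR's exact test, RLE or library size scaling, 2 other filters, a replicate block, removal of a GC trend (lowess, span 0.3) and each library left out. In a fit without a library, the lone library of a group is assumed to vary like the others. In simulated counts over 13893 genes, 54.4% of 57 genes changed by 0.5 (log2) were recovered, as were 73.1% of 67 changed by 1. Of 74 changed by 2, 98.6% were recovered, and 10% of all calls were genes left unchanged. Far fewer genes were changed there than the 2976 called in these data, so the shares need not hold here.

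Symbols, coordinates, lengths and GC content came from GENCODE 44, which gave a symbol to 57532 genes, and start windows from RefSeq (GRCh38.p14). The members and lists were chosen with earlier results of these data known. Named genes are TRMT6, TRMT61A, all members past a threshold, a list of key factors whatever their values, the highest and lowest eIF3 subunits, members not tested and the 5 highest and 5 lowest called companion genes. Other members named with values, the epithelial and other marker genes aside, were chosen after their values were seen. The correlation over genes between OE-WT libraries was 0.990 and between CTRL libraries 0.992.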

Additional observations from a re-analysis of the deposited data

How the results depend on the processing

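Of the 24 called members, 8 kept the call in each of the 8 alternative fits and with each library left out (EEF1A2, EIF2AK2, EIF2B1, EIF2S1, EIF2S3, EIF3J, EIF4A2 and EIF4EBP2), and 0 changed direction in any of these. Scaling by library size alone gave 9 members higher, against 20, without EIF1AX, EIF2AK1, EIF2B2, EIF2S2, EIF3B, EIF3CL, EIF3I, EIF4A3, EIF4G2, EIF5 and EIF5A. DESeq2 gave 11 higher, without EIF1AX, EIF2B2, EIF2S2, EIF3A, EIF3CL, EIF3I, EIF4A3, EIF5 and EIF5B, and 2 lower, without EIF2AK3 and EIF3M. Removal of the GC trend ended the calls on EIF1AX, EIF2S2, EIF4G2 and EIF5 and added EIF4H, EIF6 and EIF3F. Without the filter 15 were higher and 3 lower, without EIF2S2, EIF3CL, EIF3I, EIF4A3, EIF5 and EIF3M. EEF1AKMT2 was added by RLE scaling (adjusted p = 0.049), the exact test (0.036) and the stricter filter (0.035). With each library left out, 11 to 20 were higher, 2 to 3 lower and 1 to 2 past the thresholds of the study. The lowest count of 11 came without CTRL replicate 1, and 12 were higher without OE-WT replicate 1. Scaling by library size alone put 23.0% of all calls on the higher side, against 44.8%, and 69.2% of the members' calls, against 83.3%. Same-numbered libraries did not deviate together (r = -0.07 over genes), so the number was not taken as a pair, and with a replicate block 18 members were higher and 3 lower, without EIF3I, EIF4A3, EIF5 and EIF3M and with EEF1AKMT2 (0.048). All genes at an adjusted p below 0.05 numbered 2976, 1377 in DESeq2 and 1903 to 2852 with a library left out. Past the thresholds of the study there were 445, 288 in DESeq2, 738 without the filter, 216 with at least 10 counts in every library and 429 to 570 with a library left out. The companion genes that were lower numbered 5, 9 with library size alone, 2 in DESeq2 and 3 with any library left out, and those higher 6 to 12 in the latter.

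Members that were not called changed sign as follows. With library size alone, EEF2 was at -0.0446, EIF2AK4 at -0.0575, EIF3D at -0.0885, EIF3G at -0.0684, EIF3L at -0.0069, EIF4A1 at -0.0056, EIF4E3 at -0.0271, EIF4ENIF1 at -0.0093 and EIF4G1 at -0.0486 (log2). With the GC trend removed, EEF1D was at 0.0879, EIF2AK4 at -5e-04, EIF2B4 at 0.0229, EIF4E3 at -0.055 and EIF4EBP1 at 0.168. EIF3D was at -0.0173 without the filter and at -0.0038 with the stricter one. With a library left out the ranges were -0.0727 to 0.292 for EEF1AKMT3, -0.0172 to 0.301 for EEF1E1, -0.0954 to 0.151 for EIF2AK4, -0.0417 to 0.0476 for EIF3D, -0.0124 to 0.0610 for EIF3G, -0.332 to 0.411 for EIF4A1, -0.0670 to 0.0514 for EIF4B, -0.0685 to 0.0549 for EIF4EBP1, -0.0048 to 0.0857 for EIF4G1 and -0.0697 to 0.0093 for EIF4G3.

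As a share of protein-coding counts outside the mitochondrial chromosome, in place of all counts, the log2 ratio of summed shares turned positive for all members (-0.06 to 0.0649), for eIF1 and eIF1A (-0.09 to 0.0360), for eEF2 and its kinase (-0.04 to 0.0788) and for eIF3 (-0.01 to 0.108). It was -0.0293 for eEF1, 0.313 for eIF2, 0.237 for the kinases, 0.283 for eIF2B, 0.400 for the eIF4E-binding proteins, 0.129 for eIF4F, 0.258 for eIF5, eIF5B and eIF6, 0.278 for eIF5A and 0.184 for the methyltransferases. This total was 62.3% and 65.8% of all counts in OE-WT, with 70.9% and 68.5% in CTRL. With the union of all exons in place of the canonical transcript, the median level per kilobase was 11.1 instead of 17.7. Counts of 15 to 42 per library limit EEF1AKMT2 and EIF4A1.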

Other observations

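The genes around EEF1A2 were looked up after its fall was seen. Within 500000 bases on each side on chromosome 20, 22 other genes were tested in edgeR. An adjusted p below 0.05 was reached by 4 with lower and 1 with higher counts in OE-WT, against 11.6% and 9.44% of all genes tested. The lower ones were the RNA helicase HELZ2 (log2 fold change -0.55, adjusted p = 7.2e-05), the kinase gene SRMS (-0.75, adjusted p = 0.0098), ARFGAP1 (-0.32, adjusted p = 0.0054) and GMEB2 (-0.30, adjusted p = 0.042), and the higher one was the splicing factor PRPF6 (0.30, adjusted p = 0.0041). The median of the 22 was -0.19, and none fell as far as EEF1A2 at -1.31.

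Between replicates, 15 of the 20 members called higher had more CPM in OE-WT replicate 1 than in OE-WT replicate 2, with a median log2 ratio of 0.05 and a range of -0.13 to 0.42, and 5 had more in CTRL replicate 1 than in CTRL replicate 2. Over the 63 tested members whose levels are given, the numbers were 40 and 25.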
